A study of Mus musculus with 12 samples.

Results

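The genes for glutamate and GABA receptors were followed in H4K8ac ChIP-seq peak lists of mouse oligodendrocyte progenitor cells (OPCs), at 3 neonatal and 3 adult libraries. Members were taken by symbol alone: every peak whose nearest gene, as the authors' annotation names it, was a subunit of an ionotropic glutamate receptor (Gria, Grid, Grik, Grin), a metabotropic glutamate receptor (Grm), a GABA-A receptor (Gabra to Gabrr) or a GABA-B receptor (Gabbr). The pattern matched 37 of the 23433 gene names in the lists, with 465 peaks over the 6 libraries. Of the 37, 35 were receptor genes; Grid2ip, a scaffold protein that binds delta receptors, and Grin1os, an opposite-strand transcript at Grin1, matched by spelling and are no receptors. RefSeq holds 47 receptor genes of these families. The other 12 had no row in the lists analysed and enter only the counts of promoter windows below. Among them were Gria1, Grin2a, Grin2b, Grm2, Gabra3, Gabra6, Gabre, Gabrp, Gabrq, Gabrr1 and Gabrr3.

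Glutamate is the main excitatory transmitter of the brain and GABA the main inhibitory one. AMPA, kainate and NMDA receptors are cation channels opened by glutamate, delta receptors are structural relatives of them, and metabotropic glutamate receptors signal through G proteins. GABA-A receptors are chloride channels and GABA-B receptors are coupled to G proteins. OPCs carry receptors of several of these families and receive synapses from neurons, which is why the families are of interest in this cell type. Acetylation of lysine 8 on histone H4 (H4K8ac) is a mark of open, active chromatin.

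Both ages were forebrain OPCs sorted by a nuclear green fluorescent protein in PdgfrαH2BEGFP mice, which report activity of the Pdgfra gene; the neonatal cells came from postnatal day 5 and the adult cells from postnatal day 60. Each age had 3 H4K8ac libraries, labelled as biological replicates, and 3 input libraries, among 12 samples in all; animals per library and sex are not given. The same reporter allele and the same antibody were used at both ages, and the gate keeps any cell in which the reporter protein is still present.

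The lists differed in length before any gene was considered. Neonatal libraries 1, 2 and 3 held 9097, 31189 and 7353 peaks, and the adult libraries 72278, 72661 and 77002. Neonatal library 2 thus stood apart from the other neonatal lists. Read depth is not recorded in the lists, so its part in these lengths was not tested. Across all genes, geometric means gave 5.79 times as many peaks in adult as in neonatal lists, and each count below is read against that. A further value for each comparison comes from lists cut to equal length, which keep the 7353 peaks with the smallest p-value in every library. Marker genes of the sorted population were covered at both ages: the 8 OPC markers had promoter peaks at 8, 8 and 6 genes in neonatal libraries and at 7, 6 and 7 genes in adult libraries. Their summed covered length was 4.29 to 33.3 kb in neonatal and 58.5 to 85.2 kb in adult libraries. At 4 of the 8 every adult library lay above every neonatal one, and at 0 the reverse held. Among all genes the shares were 60.0% and 0.303%. Pdgfra, the gene of the reporter, overlapped between ages, with 1638, 6124 and 513 bp, then 1586, 1205 and 2119 bp. The 6 markers of myelinating oligodendrocytes (promoters of 5 were called in each adult list and in no neonatal one) were covered over 0.435 to 5.84 kb in neonatal and 74.2 to 93.9 kb in adult libraries. The 12 neuronal markers were covered over 0 to 3.30 kb in neonatal and 7.67 to 12.9 kb in adult libraries, with Snap25, Stmn2, Slc17a6, Neurod6 and Nefl at 0 in all 6. Of 6 microglial markers, Cx3cr1 alone was covered, over 0 kb in each neonatal library and 3.73 to 4.10 kb in adult libraries. The 6 endothelial and mural markers were covered over 0 to 2.16 kb, then 4.20 to 5.999 kb, with promoter peaks of Pecam1 and Kdr in 3 adult and no neonatal libraries and Rgs5 and Vtn at 0 in all 6. The 6 astrocyte markers were covered over 0.291 to 5.10 kb, then 7.52 to 12.8 kb, with a median difference (adult minus neonatal) of -77.2 bp. These lengths are sums over each list. Every adult library lay above every neonatal one at 6 oligodendrocyte, 3 neuronal and 1 microglial marker genes. The same held at 2 endothelial and mural and at 2 astrocyte marker genes, and the reverse at 0 genes of these lists. The part of these markers in the results below was not tested, and a mark carried by more cells cannot be told apart from more of the mark per cell.

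A set of 6 promoter windows shows where the receptor results lie on the DNA; they run from 250 bases before to 50 after the start of a RefSeq transcript (GRCm38.p6), are printed 5′ to 3′ on the strand of the gene, and carry CpG dinucleotides in capitals. Gabrr2 and Grm8 are shown because their promoters had peaks in adult libraries alone, Gabbr1 and Grik3 because theirs had peaks in all 6 libraries, and Grm3 and Gabra2, chosen after their values were seen, because they gave the longest adult coverage and the 1 promoter site that the authors list as higher in neonatal cells. The positions are chr4:33062862-33063161 for Gabrr2 (plus strand), chr6:28135097-28135396 for Grm8 (minus), chr17:37045716-37046015 for Gabbr1 (plus), chr4:125490446-125490745 for Grik3 (plus), chr5:9725303-9725602 for Grm3 (minus) and chr5:71095800-71096099 for Gabra2 (minus).
Gabrr2: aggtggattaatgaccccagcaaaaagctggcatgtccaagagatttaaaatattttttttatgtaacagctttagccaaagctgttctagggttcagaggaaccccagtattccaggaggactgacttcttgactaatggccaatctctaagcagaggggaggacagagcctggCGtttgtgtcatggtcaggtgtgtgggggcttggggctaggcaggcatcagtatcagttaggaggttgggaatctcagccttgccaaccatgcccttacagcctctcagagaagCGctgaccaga
Grm8: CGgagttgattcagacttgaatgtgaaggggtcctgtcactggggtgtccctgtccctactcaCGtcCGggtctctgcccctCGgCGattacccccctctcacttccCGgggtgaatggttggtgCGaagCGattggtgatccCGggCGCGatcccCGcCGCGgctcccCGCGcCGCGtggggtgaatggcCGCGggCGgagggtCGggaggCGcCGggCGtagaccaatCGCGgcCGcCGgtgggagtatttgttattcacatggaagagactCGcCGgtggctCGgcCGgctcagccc
Gabbr1: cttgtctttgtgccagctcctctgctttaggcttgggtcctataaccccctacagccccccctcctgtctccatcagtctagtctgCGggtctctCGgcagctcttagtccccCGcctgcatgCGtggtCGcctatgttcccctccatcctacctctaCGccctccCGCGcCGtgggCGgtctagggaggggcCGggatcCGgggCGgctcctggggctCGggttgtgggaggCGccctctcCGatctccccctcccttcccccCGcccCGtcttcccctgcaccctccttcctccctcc
Grik3: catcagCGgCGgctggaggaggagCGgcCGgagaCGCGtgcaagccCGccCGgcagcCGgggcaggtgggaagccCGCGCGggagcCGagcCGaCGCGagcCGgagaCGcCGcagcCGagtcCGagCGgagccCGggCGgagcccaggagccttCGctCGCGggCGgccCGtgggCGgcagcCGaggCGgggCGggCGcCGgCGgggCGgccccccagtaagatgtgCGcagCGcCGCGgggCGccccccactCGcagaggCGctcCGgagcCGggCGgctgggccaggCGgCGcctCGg
Grm3: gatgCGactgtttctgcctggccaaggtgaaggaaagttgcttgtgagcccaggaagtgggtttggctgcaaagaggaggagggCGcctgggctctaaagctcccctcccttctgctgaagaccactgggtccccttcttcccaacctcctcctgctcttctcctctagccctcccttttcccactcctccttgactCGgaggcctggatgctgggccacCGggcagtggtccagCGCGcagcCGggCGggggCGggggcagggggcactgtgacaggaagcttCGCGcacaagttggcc
Gabra2: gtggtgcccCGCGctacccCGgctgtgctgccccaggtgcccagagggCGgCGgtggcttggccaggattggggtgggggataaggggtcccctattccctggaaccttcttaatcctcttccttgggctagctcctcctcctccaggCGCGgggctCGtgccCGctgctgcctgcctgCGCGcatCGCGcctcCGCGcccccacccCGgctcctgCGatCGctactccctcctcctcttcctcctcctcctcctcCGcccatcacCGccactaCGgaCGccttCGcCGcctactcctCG

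The windows differ in base composition as well as in peaks. Gabrr2 has 2 CpG dinucleotides in 300 bases and Grm3 has 11, against 50 in Grik3, 33 in Grm8, 25 in Gabra2 and 18 in Gabbr1. A peak lay over the Grik3 window in all 6 libraries, over the Gabra2 window in 3 neonatal and 1 adult, over the Gabbr1 and Grm3 windows in 1 neonatal and 3 adult, over the Gabrr2 window in 3 adult and over the Grm8 window in 2 adult libraries. RefSeq gave 39 windows for 32 of the 47 receptor genes. They include windows of genes without a row in the lists: Gabra3, Gabra6, Gabre, Gabrp, Gabrq, Gabrr1, Gabrr3 and Grm2. No peak lay over the windows of those genes, so the shares below are not those of the described genes alone. A window was called rich in CpG with at least 50% G or C and an observed to expected CpG ratio of at least 0.6. Of the 39 windows, 15 (38.5%) were rich in CpG, against 33.7% of all 32619 windows. Peaks covered 5, 16 and 3 of the 39 windows in neonatal libraries 1 to 3 and 20, 13 and 14 in adult libraries 1 to 3; among all windows the shares were 9.69%, 30.4% and 8.16%, then 38.3%, 36.7% and 39.2%. The letters GGGCGG, a GC box, occurred on either strand in 48.7% of receptor windows and 35.9% of all windows, and TATAAA in 10.3% and 13.7%. None of the 39 windows held TGACGTCA, which 1.80% of all windows hold. TCAGCACC, the left part of the RE1 silencer element, was in 2.56% of receptor windows and 1.66% of all, and GGACAGC, its right part, in 5.13% and 6.60%. Each motif was searched on both strands, and overlaps between motifs were not removed.

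Receptor genes held more peaks in every adult than in every neonatal list, by a factor close to that of all genes, and intronic peaks made up most of the difference. Neonatal libraries 1, 2 and 3 held 17, 53 and 13 peaks at the 37 genes, and adult libraries 123, 118 and 141. The adult counts lay above the neonatal ones, with 127 ± 12.1 (SD, n = 3) against 27.7 ± 22.0 (SD, n = 3), and the ratio of geometric means was 5.59. Per 1000 peaks of a library the values were 1.87, 1.70 and 1.77 in neonatal and 1.70, 1.62 and 1.83 in adult libraries, which overlap. Covered length, the sum of peak widths, was 5.81, 25.6 and 3.69 kb in neonatal and 65.3, 63.1 and 94.0 kb in adult libraries. Its ratio was 8.90, against 10.6 for all genes. With 3 libraries against 3, an exact two-sided permutation test over the 20 arrangements cannot give a p below 0.1, so no comparison of libraries here can pass 0.05.

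Promoter peaks (within 3000 bp of a transcript start) numbered 17, 48 and 13 in neonatal and 56, 46 and 46 in adult libraries. The groups overlapped through neonatal library 2. The ratio was 2.24, against 3.07 for promoter peaks of all genes. They lay at 12, 31 and 10 genes in neonatal and 30, 22 and 23 genes in adult libraries. Intronic peaks did not overlap between ages: they numbered 0, 3 and 0 in neonatal and 60, 64 and 88 in adult libraries. Their share of receptor peaks was thus 0%, 5.66% and 0% against 48.8%, 54.2% and 62.4%. The whole lists shifted in the same direction. Among all peaks the intronic share was 6.67%, 15.51% and 4.64% in neonatal and 33.46%, 33.94% and 36.15% in adult libraries. All 215 intronic peaks with a receptor name lay in an intron of that same gene. Exonic peaks numbered 0, 1 and 0, then 4, 5 and 4, and their share over all peaks is not given here. Distal intergenic peaks numbered 0, 1 and 0, then 3, 2 and 3. Among all peaks the distal intergenic share was 6.63%, 14.3% and 5.37% in neonatal libraries. In adult libraries it was 18.1%, 18.6% and 18.5% of all peaks. A single peak, at Grm7 in adult library 2, lay in a 3′ UTR.

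**Figure D1:**
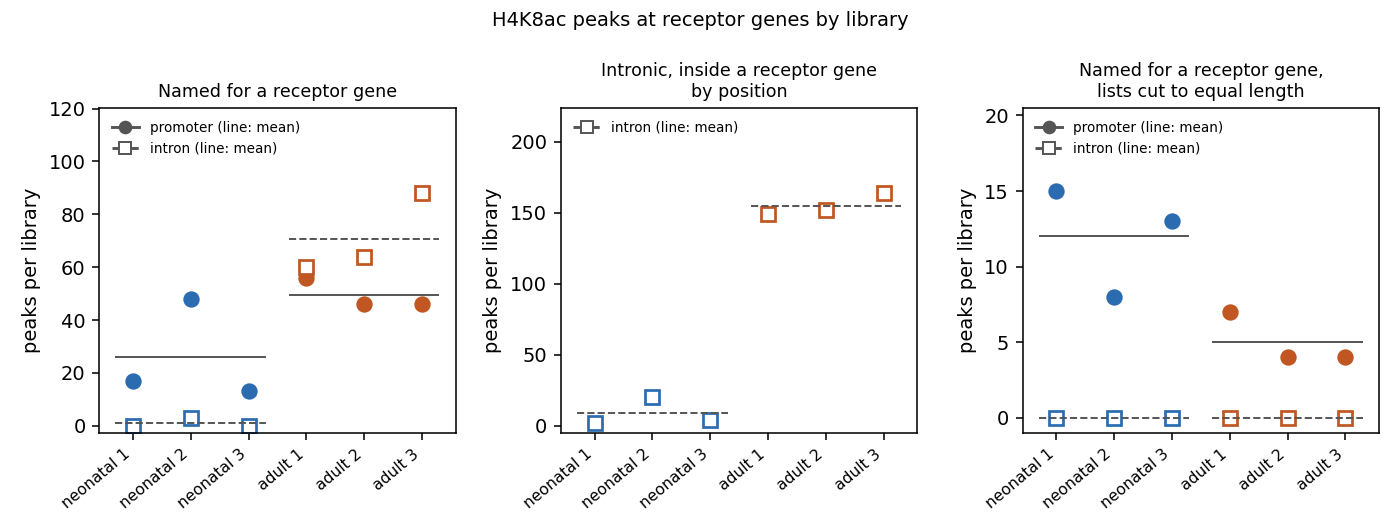
H4K8ac peaks per library (vertical axis, number of peaks) for the 3 neonatal (blue) and 3 adult (orange) libraries, with circles for promoter peaks, squares for intronic peaks and lines for the mean of each age. The left panel counts peaks named for the 37 genes, the middle panel intronic peaks inside a receptor gene by position (2, 20 and 4 against 149, 152 and 164), and the right panel lists cut to the 7353 strongest peaks, where promoter peaks number 15, 8 and 13 against 7, 4 and 4 and intronic peaks are 0.

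In lists of equal length the direction turned. The strongest 7353 peaks of each library held 15, 8 and 13 receptor peaks in neonatal and 7, 4 and 4 in adult libraries, a ratio of 0.416, and every one of them was a promoter peak. No intronic receptor peak of any adult library was among the strongest 7353. The class shares over all peaks of the cut lists are not given here, so this absence is not read as particular to receptor genes. Covered length in these lists was 5.42, 9.62 and 3.69 kb against 13.6, 6.14 and 12.8 kb, a ratio of 1.77 with overlapping groups: adult promoter peaks were fewer and wider.

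Promoters called in each of the 3 adult libraries and in 0 neonatal ones were found at 3 of the 37 genes, Gabrr2, Gria3 and Grm8, against 9.60% of all genes. The reverse pattern was found at 0 of 37, against 0.209% of all genes. Gabrr2 encodes the rho2 subunit of GABA-A receptors, Gria3 an AMPA receptor subunit and Grm8 a metabotropic receptor of group III. Promoter peaks in all 6 libraries were found at 7 receptor genes, among them Gabbr1, Grid1, Grik3, Grik4, Grik5 and Grin2d. A further 7 members had one in neonatal library 2 and in all adult libraries (among them Gria2, Grik1, Grin1, Grin1os, Grm3 and Grm7), so the long neonatal list decided their call: without neonatal library 2 the adult pattern held at 10 of 37 genes, against 28.7% of all genes. Grm5, a group I metabotropic receptor, had promoter peaks in 2 neonatal and no adult libraries, and Gabra4 and Gabra5 in 1 neonatal and no adult library. Gabrd had no promoter peak in any library.

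Equal lists gave other calls. Grm3 was the 1 member with a promoter peak in 3 adult and no neonatal libraries, against 3.76% of the 10859 genes in those lists. Gabbr2, Gabra2 and Grik3 had one in 3 neonatal and no adult libraries, against 4.19% of genes. Gabbr1 had one in all 6. Of the 37 genes, 14 were in the equal lists at all.

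Covered length per gene separated the ages at 16 of 37 genes, with every adult library above every neonatal one; the share of all genes was 60.0%. No member lay the other way, against 0.303% of all genes. The median difference, adult minus neonatal, was 408 bp over the 37 genes and 661 bp over all 23433. The smallest exact permutation p of any gene was 0.1, or 0.166 after Benjamini-Hochberg adjustment over all genes, and 0 genes reached an unadjusted p under 0.05. In equal lists every adult library was above every neonatal one at 2 members (Gabbr1 and Grm3), against 34.4% of genes, and the reverse held at 3 members (Gabbr2, Gabra2 and Grik3), against 4.64%.

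**Figure D2:**
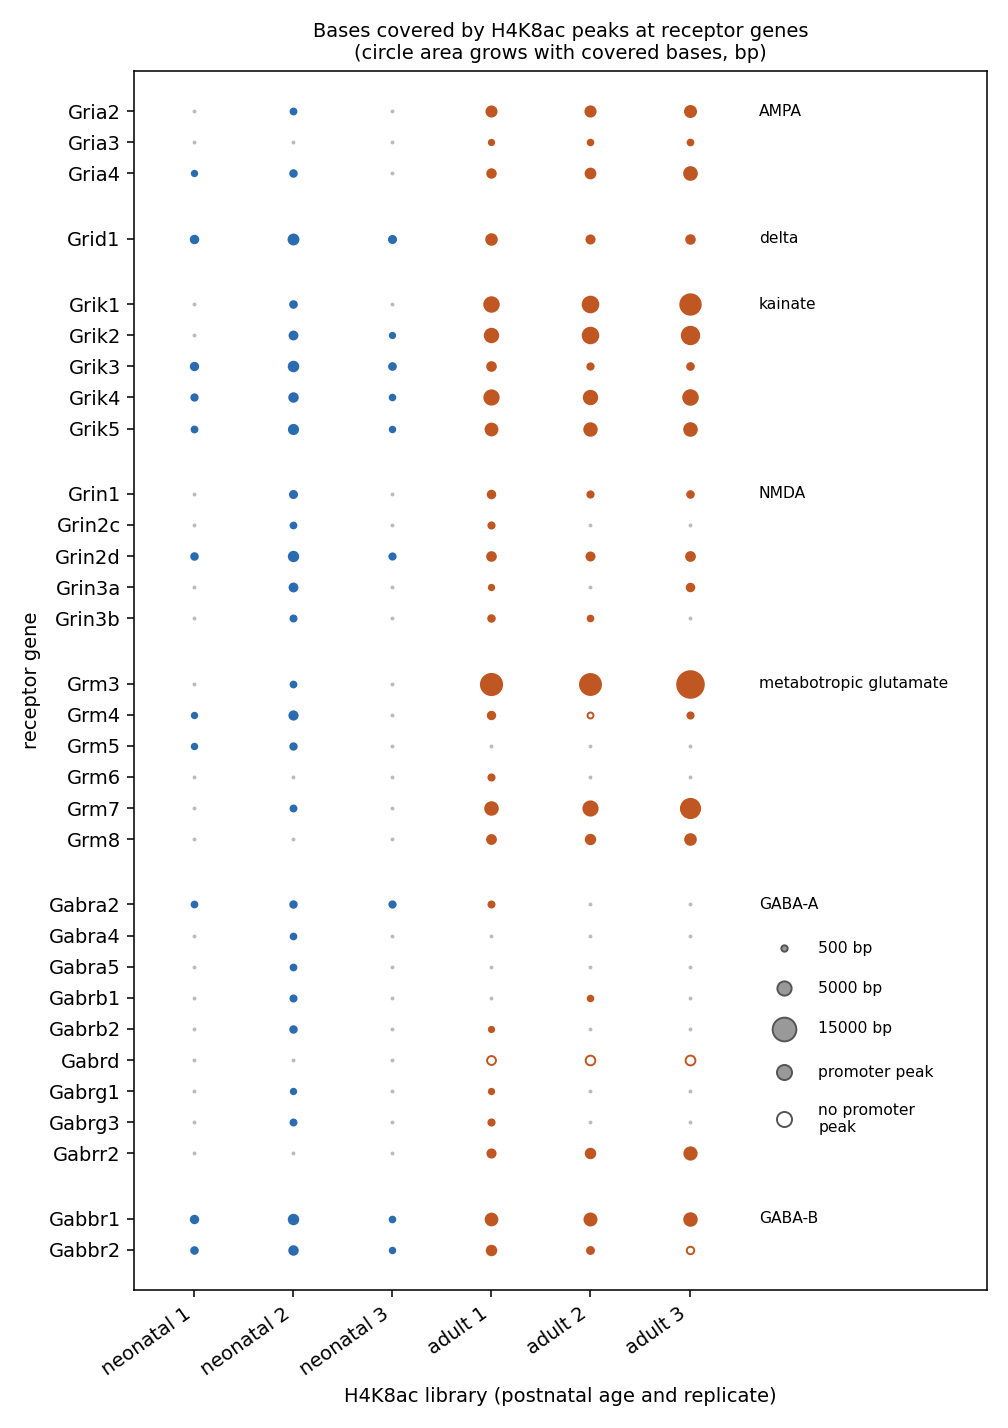
Bases covered by H4K8ac peaks (circle area grows with them, bp) at 31 receptor genes (vertical axis, grouped by class) in each neonatal (blue) and adult (orange) library; filled circles have a promoter peak, open circles have peaks without one and small grey dots mark 0 bp. Grm3 has the largest adult circles (11598 to 19052 bp). Most GABA-A subunit genes drawn have a circle in neonatal library 2 and most have one in adult library 1. Of those drawn, Gabra2 alone has a circle in neonatal libraries 1 and 3, and Gabrd and Gabrr2 have one in every adult library.

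Among AMPA receptors, which carry fast excitatory transmission, Gria2, Gria3 and Gria4 were in the lists and all 3 separated the ages. Their peaks numbered 1, 3 and 0 in neonatal and 8, 7 and 12 in adult libraries, of which 5, 4 and 6 adult peaks were at promoters and 3, 3 and 6 in introns. Gria2, the subunit that sets calcium permeability, was covered over 0, 335 and 0 bp in neonatal and 2213, 2254 and 2758 bp in adult libraries. Gria4 was covered over 172, 577 and 0 bp, then 1378, 2047 and 3865 bp. Gria2 and Gria4 are given per library after their values were seen. Gria3, on chromosome X, had 0 bp in each neonatal library and 161, 242 and 291 bp in adult libraries, from 1 narrow promoter peak in each with an authors' fold enrichment of 5.42, 4.54 and 3.54. These peaks were not at 1 place: that of adult library 1 lay at chrX:41401974-41402134, and those of adult libraries 2 and 3 at chrX:41401568-41401877. Its gene of 278 kb held no intronic peak in any library.

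Grid1, a delta receptor gene, was covered over 946, 2115 and 789 bp in neonatal and 2498, 1208 and 1424 bp in adult libraries; the ages overlapped. It had a promoter peak in all 6 libraries.

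Kainate receptor genes carried the most peaks of the ionotropic classes: 4, 9 and 5 in neonatal and 36, 40 and 36 in adult libraries. Promoter peaks were 4, 9 and 5, then 11, 12 and 9, and intronic peaks 0, 0 and 0, then 25, 27 and 27. Grik1, Grik2, Grik4 and Grik5 separated the ages and Grik3 did not. Grik1, which encodes the GluK1 subunit, was covered over 0, 622 and 0 bp in neonatal and 5231, 6205 and 10972 bp in adult libraries. Its adult intronic peaks numbered 11, 8 and 13, and 7 of its 15 intronic regions were in 3 adult and no neonatal libraries, from chr16:88112624 to chr16:88194725. Grik2, the GluK2 subunit, was covered over 0, 1106 and 153 bp, then 4396, 6133 and 7832 bp. Grik4 and Grik5 encode the high-affinity subunits GluK4 and GluK5, which form channels with the low-affinity ones. Grik4 was covered over 485, 1402 and 244 bp, then 5061, 4383 and 5285 bp, and Grik5 over 324, 1731 and 217 bp, then 3299, 3713 and 3821 bp. Grik3, with promoter peaks in all 6 libraries, was covered over 889, 1925 and 640 bp, then 1468, 481 and 623 bp.

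NMDA receptor genes had a median difference of 154 bp by name, against 2180 bp for AMPA, 4199 bp for kainate and 279 bp for metabotropic receptor genes. Their peaks numbered 2, 11 and 2 in neonatal and 8, 5 and 7 in adult libraries, none of them intronic, and 0 of the 5 genes separated the ages. Grin1, the obligatory subunit, was covered over 0, 764 and 0 bp in neonatal and 967, 455 and 590 bp in adult libraries. Grin2d was covered over 590, 1830 and 458 bp, then 1489, 1152 and 1548 bp, with a promoter peak everywhere. Both genes overlapped between ages through neonatal library 2. The Grin1os peaks covered 0, 564 and 0 bp, then 1718, 2058 and 1939 bp. Their joined region overlaps this transcript, the 3′ end of Grin1 and Lrrc26. The gene these peaks belong to thus cannot be told from position.

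Metabotropic glutamate receptor genes held 2, 5 and 0 peaks in neonatal and 35, 34 and 48 in adult libraries, with promoter peaks of 2, 4 and 0, then 11, 10 and 11, and intronic peaks of 0, 1 and 0, then 22, 22 and 35. Grm3 and Grm7 held nearly all of the intronic ones. Grm3, a group II receptor that lowers cyclic AMP, had the longest adult coverage of any member: 0, 315 and 0 bp in neonatal and 11867, 11598 and 19052 bp in adult libraries. It had 13, 9 and 17 intronic peaks in adult and none in neonatal libraries. Grm3 peaks covered its start as a block, with a promoter region at chr5:9720645-9726397 and 5 intronic regions in 3 adult and no neonatal libraries between chr5:9702468 and chr5:9720146. Its highest promoter peak had an authors' fold enrichment of 4.31 in neonatal library 2 and of 18.3, 18.1 and 16.6 in adult libraries. Grm7, a group III receptor with low glutamate affinity, was covered over 0, 364 and 0 bp, then 3786, 5013 and 9633 bp. Its adult intronic peaks numbered 7, 12 and 17, but just 1 of its 25 intronic regions recurred in all 3 adult libraries. Grm8 had 0 bp in each neonatal library and 1546, 1843 and 2565 bp in adult libraries, nearly all at its promoter. By name, Grm5 went the other way in its values, with 204, 521 and 0 bp in neonatal and 0 bp in all adult libraries. The groups tie at 0.

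Among the 11 GABA-A receptor genes, 8 had a higher neonatal than adult mean coverage, against 2 of 22 glutamate receptor genes, and the class median was -60.0 bp (adult minus neonatal); across all genes 2748 of 23433 had a higher neonatal mean. Neonatal library 2 carried most of these values: Gabra4, Gabra5, Gabrb1, Gabrb2 and Gabrg1 had a neonatal promoter peak in library 2 alone. So did Gabrg3, whose mean coverage was higher in adult libraries (147 bp against 121 bp). Peaks of the class numbered 2, 11 and 2 in neonatal and 11, 13 and 12 in adult libraries. Gabra2, the alpha2 subunit that is abundant in the young brain, was covered over 308, 537 and 468 bp in neonatal and 393, 0 and 0 bp in adult libraries; adult library 1 lay inside the neonatal range and the exact permutation p was 0.2. In equal lists the class had 0.508, 0.537 and 0.715 kb covered in neonatal and 0 kb in all adult libraries.

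The 2 GABA-A genes that separated the ages upward were Gabrr2 and Gabrd. Gabrr2 had 0 bp in each neonatal library and 1221, 1877 and 3580 bp in adult libraries. Over the printed Gabrr2 window the adult peaks had authors' fold enrichments of 3.00, 2.68 and 6.41. Further into the gene, at chr4:33076211-33076970, peaks that the authors also class as promoter had 5.06, 4.25 and 4.20. Gabrd, whose delta subunit belongs to extrasynaptic receptors, had 0 bp in each neonatal library and 1547, 1954 and 2037 bp in adult libraries, all in exons around chr4:155385866-155388180. No other gene in the RefSeq table spans this stretch.

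GABA-B receptors work as pairs of GABBR1 and GABBR2. Gabbr1 was covered over 916, 1883 and 260 bp in neonatal and 3215, 3393 and 3747 bp in adult libraries, and separated the ages. Its highest promoter peak had an authors' fold enrichment of 6.60, 10.3 and 6.57, then 22.5, 17.0 and 13.6. Gabbr2 was covered over 595, 1401 and 215 bp, then 1896, 725 and 919 bp, and did not separate the ages. In equal lists Gabbr1 had a promoter peak in all 6 libraries and Gabbr2 in 3 neonatal and no adult libraries; the difference between the partners was not tested.

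Names and positions gave different pictures of the introns. The lists name the nearest transcript start, so a peak deep in a receptor gene can carry the name of a small gene nested there. Over the 35 receptor genes, 599 peaks of the 6 libraries lay inside the RefSeq span and more than 3000 bp from both ends, and 318 of them were named for another gene. By position the intronic peaks numbered 2, 20 and 4 in neonatal and 149, 152 and 164 in adult libraries. The ages did not overlap by either count.

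Grik3 had the most peaks of this kind. Its gene body held 1, 12 and 3 peaks in neonatal and 43, 45 and 32 in adult libraries, and 0 of these 136 peaks were named Grik3: 127 carried the name of the microRNA gene Mir692-2. By name Grik3 had a mean coverage of 1151 ± 681 bp (SD, n = 3) in the neonatal lists and of 857 ± 534 bp in the adult ones, which differ by less than the spread, while the body counts did not overlap. Grin3a, an NMDA receptor subunit that lowers calcium entry, held 0, 0 and 0 peaks in neonatal and 10, 12 and 6 in adult libraries, all 28 named for Ppp3r2, a calcineurin subunit gene nested in it. The NMDA class, without intronic peaks by name, thus had 1 gene with many by position. The body of Grid1 held 0, 3 and 0, then 15, 11 and 14 peaks, of which 38 of 43 were named for another gene, mostly Mir346. Grik2 held 0, 2 and 1, then 19, 22 and 24, with 45 of 68 named otherwise, and Grik4 1, 3 and 1, then 19, 18 and 14, with 31 of 56 named otherwise. Grm4, a group III receptor, held 0, 2 and 0, then 5, 4 and 3, with 10 of 14 named otherwise. Grm5, at 0 bp by name in adult libraries, held 0, 1 and 1, then 1, 1 and 1, all named for Gm44846. These Grm5 peaks covered 0, 836 and 383 bp, then 272, 402 and 270 bp. Peaks inside Grik1, Grm7, Grm8, Gabrr2 and Gria4 all carried the receptor's own name.

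By position 14 of 35 receptor genes had more body peaks in every adult than in every neonatal library, against 14.4% of protein-coding genes; receptor genes are long, and among genes of 100 kb or more it was 11 of 22 receptor genes against 46.4% of all. These long receptor genes held a mean of 2.19, 2.13 and 2.08 body peaks per 100 kb in adult libraries 1 to 3, against 4.04, 4.09 and 4.65 over the 2428 long protein-coding genes. Among GABA-A genes, Gabra2, Gabrb2 and Gabrg3, of 137 to 671 kb, had 0 body peaks in all 6 libraries. Counted by name, an intronic peak in 3 adult and no neonatal libraries was found at 9 of 37 genes, against 11.2% of all genes. Among them were Gabrr2, Gria4, Grik1, Grik2, Grik4, Grik5, Grm3 and Grm7. That share is not matched for length. Of 22 receptor genes of 100 kb or more, 9, 8 and 11 had an intronic peak by name in adult libraries 1 to 3. The shares of all 2201 such genes in the lists were 50.2%, 49.8% and 54.7%.

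Adult peaks sat at different places in different genes. In Grm3, 40 of 48 adult peaks beyond the first 3 kb lay in the first 48.0 kb of a gene of 240 kb, with a median distance of 16.5 kb from the 5′ end. Grm7 showed the reverse, with 37 adult peaks between 494 and 784 kb of a gene of 922 kb. In Grik1, 32 adult peaks lay between 78.6 and 203 kb, with a median of 101 kb. Grin3a peaks had a median distance of 168 kb in a gene of 184 kb, and Grik4 peaks one of 212 kb in a gene of 427 kb.

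**Figure D3:**
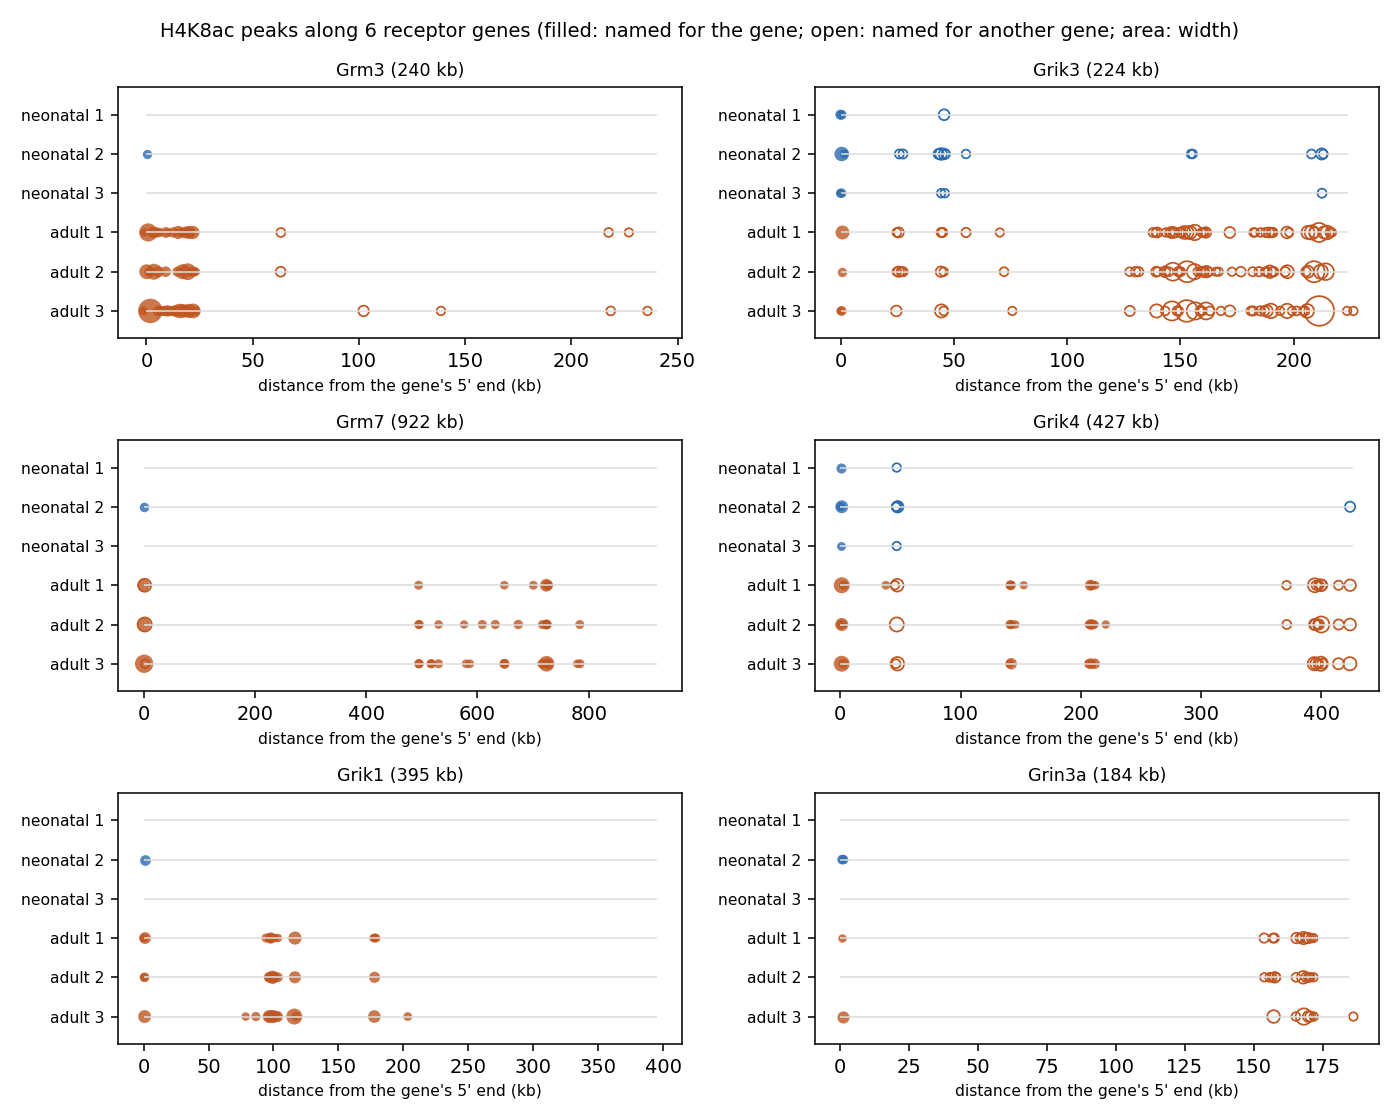
Peaks of each library (rows, neonatal blue and adult orange) along 6 receptor genes, by distance from the gene's 5′ end in kb; circle area grows with peak width, filled circles are named for the gene and open circles for another gene. Adult peaks crowd near the start of Grm3, in the later stretches of Grm7 and Grin3a and around 100 kb in Grik1, and all body peaks of Grik3 and Grin3a are open.

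Joined over libraries, the peaks named for members formed 199 regions: 73 at promoters, 114 in introns, 4 in exons and 7 distal. Of the 199 regions, 100 were present in 1 library. Regions in 3 adult and no neonatal libraries numbered 35, of which 27 were intronic and 5 at promoters. Regions in all 6 libraries numbered 6, all at promoters. Regions found in neonatal libraries alone numbered 10, and 0 of them were present in all 3. Regions were not counted over all genes, so these numbers have no background share. Among all peaks, every adult list was longer and had a larger intronic share than every neonatal list.

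The authors' deposited table of differential sites gives a test on reads, at sites that themselves lie on called peaks. Of its sites, 43880 overlapped a peak of the 6 lists, so the table is not independent of peak presence. It lists 43888 sites of 400 bp, of which 65 fell on peaks named for members, at 17 genes. Of these, 64 had the higher level in adult cells and 1 in neonatal cells by the authors' deposited table, against 99.4% and 0.579% of all listed sites. The receptor sites thus followed the list as a whole, which holds few sites in the neonatal direction. In the authors' deposited table the 42 intronic receptor sites had a median log2 fold change, adult over neonatal, of 3.23, against 2.87 for all intronic sites, and the 20 promoter sites one of 1.89, against 1.86. None of the 42 intronic sites overlapped a neonatal peak, and neither did 13494 of all 14342 intronic sites in that table.

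The 5 largest values of the authors' deposited table at peaks named for members were all intronic. Among them were a site of Grik5 at chr7:25033318-25033717 (6.45 on the log2 scale of that table, adjusted p 8.2e-08), 2 sites of Grik1 at chr16:88191450-88191849 (6.31) and chr16:88190048-88190447 (6.20), and 1 of Grm3 at chr5:9716011-9716410 (6.22). Grm3 had the most sites, 10 in the authors' deposited table, with a median of 3.52 and a range of 2.44 to 6.22. Its promoter site at chr5:9724932-9725331 overlaps the printed Grm3 window and had 3.27 in the authors' deposited table. Grik1 had 7 sites (median 2.94) and Grm7 7 (3.13), again from the authors' deposited table. At the promoters shown above, the authors' deposited table gives 2.85 for Gabrr2 at chr4:33062859-33063258 and 2.78 for Grm8 at chr6:28134889-28135288. A neighbouring Grm8 promoter site at chr6:28135543-28135942, with peaks in 2 adult and no neonatal libraries, had 1.95 there. At promoters with peaks at both ages the authors' deposited table gives 1.45 for Gabbr1, 1.25 for Grik5, 1.27 for Gria4 and 1.28 and 1.44 for Gria2, below those of Gabrr2 and Grm8. The Grm3 promoter site had peaks in 1 neonatal and 3 adult libraries and lay above the Gabrr2 and Grm8 sites given here.

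The single neonatal site was the promoter of Gabra2 at chr5:71095883-71096282, which overlaps the printed Gabra2 window. Its log2 fold change was -1.39 by the authors' deposited table (adjusted p 0.00599), and 0.419% of all promoter sites in that table lie lower. Peaks overlapped it in 3 neonatal libraries and 1 adult library.

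By position, 122 listed sites lay inside or within 3000 bp of 20 receptor genes, of which 120 had the higher level in adult and 2 in neonatal cells by the authors' deposited table. Grik3 then led with 20 sites in the authors' deposited table, 19 higher in adult, up to 5.99; the other, at chr4:125535664-125536063 in an intron, had -0.90 (adjusted p 0.0476). Grin3a had 7 sites in the authors' deposited table, all higher in adult, with a median of 3.45 and a highest value of 6.33 at chr4:49688594-49688993. The largest value in or near a receptor gene in the authors' deposited table was 6.95, in an intron of Grik2 at chr10:49646908-49647307, a site named for Gm47016. Sites within 3000 bp of Grin1, Grin2d and Grik5 include promoters of neighbouring genes, so their genes cannot be told apart there.

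**Figure D4:**
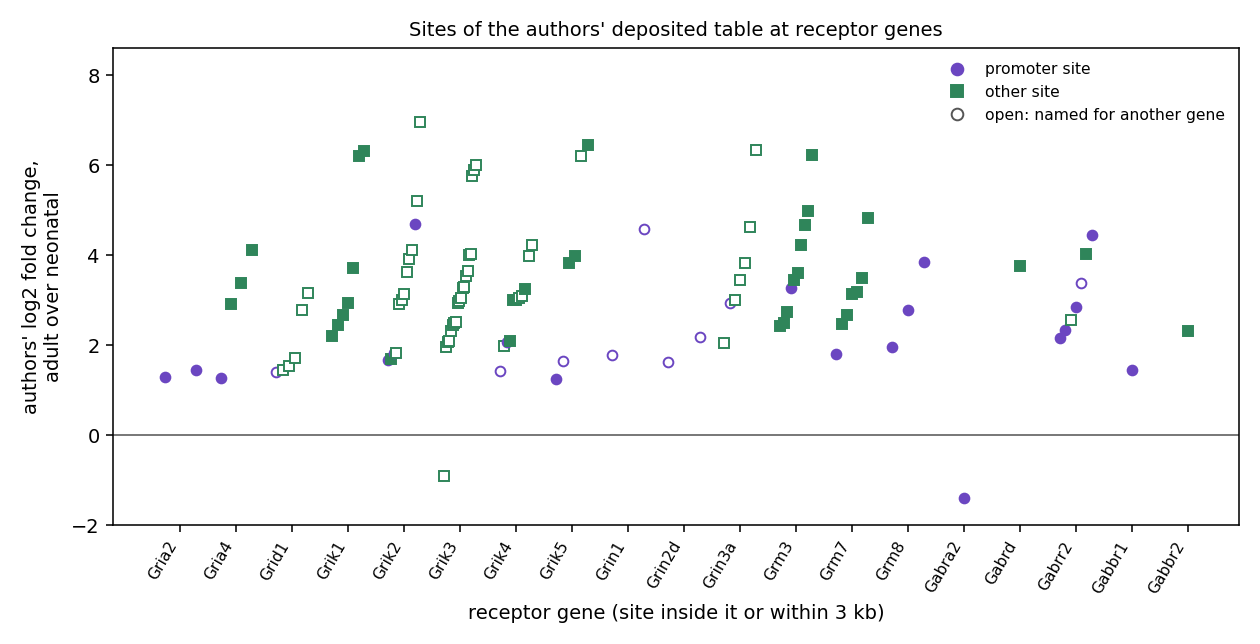
Log2 fold change, adult over neonatal, of each site in the authors' deposited table (vertical axis) that lies inside or within 3 kb of 1 of 19 receptor genes (horizontal axis); circles are promoter sites, squares other sites, and open symbols are named for another gene. Of the 111 sites drawn from the authors' deposited table, 109 lie above 0, and the exceptions are the Gabra2 promoter at -1.39 and a Grik3 intron site at -0.90.

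Genes that work with the receptors were read from 2 lists. Of 34 auxiliary and scaffold genes (such as TARP, neuroligin and KCTD proteins), promoter peaks were found at 21, 28 and 19 genes in neonatal and 29, 27 and 26 in adult libraries. Cacng5, a TARP, and Kctd16, a GABA-B auxiliary subunit, had one in 3 adult and no neonatal libraries, as did 9.60% of all genes. Covered length separated the ages upward at 16 of these genes and downward at 1, with a median difference of 846 bp. Among all genes the shares were 60.0% upward and 0.303% downward. Of 20 genes of glutamate and GABA transport and synthesis, promoter peaks were found at 10, 16 and 8, then 15, 13 and 14 genes. Slc17a7, the vesicular glutamate transporter VGLUT1, was the 1 gene with one in 3 adult and no neonatal libraries, against 9.60% of all genes. It is also on the neuronal marker list. Covered length separated the ages upward at 8 of these genes and downward at 0, against 60.0% and 0.303% of all genes. The median difference was 878 bp, against 661 bp over all genes.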

How the data were processed

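H4K8ac ChIP-seq peaks were called by the authors in each library separately, per the file headers and the library names of the deposited lists; the tools named in the submitters' processing notes are Trim Galore, Bowtie2 2.4.5, SAMtools, deepTools, MACS2, DiffBind and ChIPseeker, with the build GRCm38 and no parameters. The deposited lists give each peak a position, a fold enrichment (ratio), a score, a p-value and a q-value as −log10, and ChIPseeker's class and nearest gene; the largest q-value was between 0.0427 and 0.0489 in the 6 lists, so weaker enrichment counts as 0. The authors' deposited table of differential sites gives a log2 fold change, p-value and adjusted p-value per site, with no column per library; its sign was read from overlap with the lists.

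Peaks were counted and their widths summed per library and gene with Python 3.11.15, pandas 2.3.3, numpy 2.4.6 and scipy 1.17.1. Starts were raised by 1 for printing. A site took the gene and class of the deposited peak that shares most bases with it (at least 1 bp). Ages were compared by exact two-sided permutation over 20 arrangements, with Benjamini-Hochberg adjustment over all genes, and by whether the libraries overlap, read against the same count over all genes; the tests were checked on simulated data. Peak counts carry no read depth, so no counting interval is given. RefSeq spans (GRCm38.p6) gave counts by position, with the RefSeq table's symbols matched to all 35 receptor genes. Ratios of geometric means were planned for intronic and distal peaks and cannot be formed with neonatal libraries at 0, so differences of means are used. Members, gene lists and tests were chosen with earlier results of these data known. Genes given per library were the 2 of each class with the longest mean coverage (AMPA and delta receptors as 1 class), those with a promoter peak in 3 adult and no neonatal libraries, and those with a site higher in neonatal cells; kainate genes beyond 2, and Gria2, Gria4, Grm5 and genes described by position, were chosen after their values were seen. Some genes this rule names are not reported here. Alternatives were equal lists, a q-value under 0.005, each library left out, receptor genes without Grid2ip and Grin1os, merged peaks, other promoter rules, a pseudocount of 100 bp in place of 1 bp and a replicate block.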

Additional observations from a re-analysis of the deposited data

How the results depend on the processing

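Every value named here refers to the 37 genes unless positions are named. Lists of equal length turned the ratio of receptor peaks from 5.59 to 0.416 and that of promoter peaks from 2.24 to 0.416. They also turned the difference in genes with a promoter peak from 7.33 to -4.67, took the differences in intronic and distal peaks from 69.7 and 2.33 to 0 and 0, left 1 gene in place of 3 with a promoter peak in 3 adult and no neonatal libraries, moved the difference per 1000 peaks from -0.060 to -0.952 and the ratio of covered bases from 8.90 to 1.77. The log2(bp + 1) difference turned from 6.75 to -2.42 at Grik2, from 0.94 to -8.98 at Gabbr2, from 0.48 to -6.53 at Grid1 and from 0.81 to -2.50 at Grin2d, and went to 0 at Gabrd, Gabrr2, Gria3, Grik1, Grin1, Grm7 and Grm8. A q-value under 0.005 gave 57.3 more intronic peaks in adult libraries and -0.177 per 1000 peaks; merging peaks within 1000 bp gave 34.3, and counting by position, an alternative chosen after seeing the data, gave 146 more. In the authors' deposited table an adjusted p under 0.005 left 0 receptor sites higher in neonatal cells, and sites by position numbered 120 higher in adult and 2 in neonatal; the cause of these shifts was not tested beyond what each setting changes by construction.

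Leaving out 1 library in turn gave ratios of 4.23 to 8.54 for peaks, 1.72 to 3.30 for promoter peaks and 5.98 to 15.7 for covered bases; the highest value of each came without neonatal library 2. Differences ranged from 61.0 to 75.0 for intronic peaks, 2.17 to 2.67 for distal peaks, 3.50 to 14.0 for genes with a promoter peak and -0.116 to -0.012 per 1000 peaks. Genes with a promoter peak in 3 adult and no neonatal libraries numbered 3 to 10. Restricting to receptor genes left all these values on the same side. With replicate numbers as a block, covered bases again had a ratio of 8.90, with an exact sign-flip p of 0.25, the smallest that 3 pairs allow. Same-numbered libraries had correlations of -0.038, 0.025 and 0.070 in their deviations, so the numbers do not pair the libraries; not every library correlates best with its own number. The site table has no column per library, so no library could be left out there.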
